A study of Homo sapiens with 12 samples.

Results

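The tripartite motif (TRIM) genes encode one of the largest families of RING-type ubiquitin ligases. They were followed here in input RNA of C4-2 cells, an established castration-resistant prostate cancer line. Members were all rows of the expression table whose Ensembl identifier maps to a protein-coding gene with a symbol of TRIM followed by a number. Of 20308 genes in the table, 70 met this rule; 2 readthrough genes (TRIM6-TRIM34 and TRIM39-RPP21) and TRIM16L, which RefSeq does not list as protein-coding, were left out. The cells either overexpressed the m6A demethylase ALKBH5 (oeALKBH5) or carried the empty vector (NC). Both groups are the same line with no other treatment in the labels, and each had 3 input libraries from ribosome-depleted total RNA. The labels give neither the vector nor its promoter, and they do not say whether the cells were a clone or a pool or whether replicates were separate cultures. Each p-value is therefore set against the spread among the libraries at hand, and that spread may be technical.

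A TRIM protein typically carries a RING finger that recruits the ubiquitin-charged E2 enzyme, B-box zinc fingers and a coiled coil through which the proteins pair, followed by a C-terminal region that picks the target. The C-terminal region divides the family into classes, of which the PRY-SPRY class is the most numerous. Many PRY-SPRY members act against viruses or tune the sensing of foreign nucleic acid, and several are induced by interferon. The family also includes transcriptional cofactors such as TRIM24, a reader of histone marks, and TRIM28, a corepressor that is loaded onto chromatin by KRAB zinc finger proteins.

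Levels are taken as FPKM, which divides each gene's fragments by transcript length and by the fragments mapped in that library. The authors deposited the values without a unit, which was read from the tools named and from the values. The libraries summed to between 511333 and 524905 FPKM, and absolute depth is unknown. Differences are oeALKBH5 minus NC in log2(FPKM + 1), which understates those of low genes, and were tested with limma at a Benjamini-Hochberg adjusted p of 0.05 over all tested genes. Relative to NC replicate 1, the depth estimated from low genes was 0.783 to 1.07 in oeALKBH5 libraries and 1 to 1.13 in NC libraries, an estimate that rests on 15.7% to 23.1% of the low genes compared. ALKBH5 itself was at 80.3, 74.3 and 72.5 FPKM in oeALKBH5 libraries, against 64.9, 61.1 and 58.2 FPKM in NC libraries, and did not pass the test over all genes (log2 difference 0.30, SE 0.10, limma adjusted p = 0.114). All 9 luminal prostate markers examined were present, with a summed level of 2244 to 2478 FPKM in oeALKBH5 libraries and 2234 to 2267 FPKM in NC libraries. Of these markers KRT8 alone passed the test, and it was higher in oeALKBH5 cells (log2 difference 0.70, limma adjusted p = 0.00242). Fibroblast markers summed to 2.17 to 27.6 FPKM in oeALKBH5 libraries and 3.79 to 12.6 FPKM in NC libraries, nearly all of it COL1A1, with DCN at 0 throughout, and immune markers summed to 1.31 to 1.79 FPKM in oeALKBH5 libraries and 0.521 to 3.36 FPKM in NC libraries.

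Most of the expressed TRIM family differed little between oeALKBH5 and NC cells. Of 70 members, 41 averaged 0.5 FPKM or more across the input libraries and were tested; 3 of these rose in oeALKBH5 cells and none fell. The 3 were TRIM29, a RING-less member known from basal epithelium, TRIM13, a ligase anchored in the endoplasmic reticulum membrane, and TRIM22, an interferon-inducible restriction factor. The background over all 12757 tested genes was 5.45% called, 3.02% higher and 2.43% lower. The members' 7.32% were all called higher, so the like share is 3.02%. With only 3 calls, nothing about the family is drawn from the gap. At an unadjusted limma p under 0.05, 5 members were higher and 1, TRIM2, was lower, 6 of 41 in all, where 21.9% of all tested genes passed that limit. TRIM29 and TRIM22 reached the filter of 0.5 FPKM only through their oeALKBH5 libraries, so they had to differ between the groups to be tested, and the counts describe the tested members and not the whole family. Among all tested genes, 577 reached the filter through 1 group only.

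The median log2 difference, oeALKBH5 minus NC, was -0.01 over the 41 tested members and 0.02 over all tested genes. Its median size without sign was 0.16 in the members and 0.25 in all tested genes. The difference was smaller than 0.5 in either direction in 35 members, 85.4%, against 78.4% of all tested genes. The groups did not overlap in 7 of 41 members, 6 with oeALKBH5 above and 1 with oeALKBH5 below, where 28.1% of all tested genes did not overlap, 15.1% above and 13% below. The summed level of the 70 members was 805, 739 and 861 FPKM in oeALKBH5 libraries and 776, 787 and 751 FPKM in NC libraries, and the 2 ranges overlapped.

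**Figure D1:**
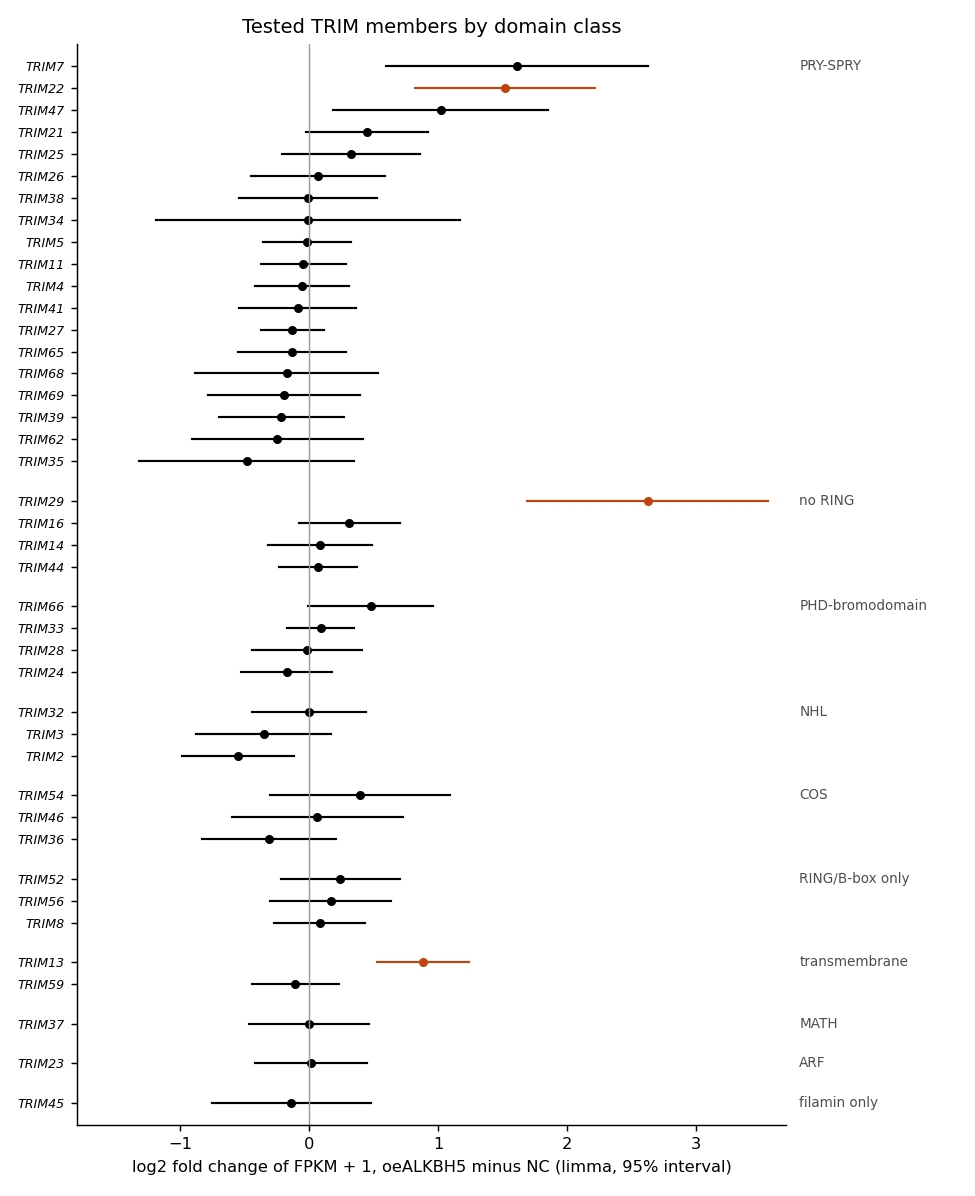
Log2 difference of FPKM + 1 (oeALKBH5 minus NC, x axis) for the 41 tested TRIM members, grouped by domain class, with the 95% interval from limma; orange marks members called at an adjusted p under 0.05. Most points lie within 0.5 of 0, and the called members TRIM29, TRIM22 and TRIM13 lie in different classes.

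TRIM29 had the largest difference of the family. This protein lacks the RING finger and binds other regulators through its B-boxes and coiled coil. It was at 4.11, 11.7 and 5.32 FPKM in oeALKBH5 replicates 1, 2 and 3, against 0, 0.752 and 0 FPKM in NC replicates 1, 2 and 3. Every oeALKBH5 library stood above every NC library, and oeALKBH5 replicate 2 was far above the others of its group. The fitted log2 difference was 2.62 (SE 0.41, limma adjusted p = 0.00999), and since values of 0 enter it, its size follows the pseudocount of 1 FPKM: it was 4.98 with a pseudocount of 0.1. Without NC replicate 3 the call was lost (limma adjusted p = 0.0542). TRIM29 is also a marker of basal cells, so the other basal markers are given beside it: KRT5, KRT14 and TP63 summed to between 0 and 6.14 FPKM in oeALKBH5 libraries and to between 1.58 and 4.95 FPKM in NC libraries. TP63 was listed at 0 in all 3 oeALKBH5 libraries, and all 3 basal markers were at 0 in oeALKBH5 replicate 2, where TRIM29 was highest. In oeALKBH5 replicate 3, KRT5 was at 2.81 FPKM and KRT14 at 3.34 FPKM. Whether TRIM29 followed these low markers was not tested. In bulk RNA, more cells that express a gene and more RNA per cell cannot be told apart.

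TRIM13 was the called member with the highest level. It marks proteins of the endoplasmic reticulum for degradation and takes part in autophagy. It was at 21.7, 24.6 and 21.5 FPKM in oeALKBH5 libraries, against 10.9, 13.4 and 11.2 FPKM in NC libraries. The lowest oeALKBH5 library was well above the highest NC library, and the means were 22.6 ± 1.69 FPKM in oeALKBH5 cells and 11.9 ± 1.38 FPKM in NC cells (SD, n = 3 each). The log2 difference was 0.88 (SE 0.16, limma adjusted p = 0.0162). The call held without NC replicate 2 (limma adjusted p = 0.0343) but was lost when any other library was left out, with adjusted p between 0.0509 without oeALKBH5 replicate 1 and 0.0739 without NC replicate 3. On the RefSeq map TRIM13 overlaps KCNRG, a potassium channel regulator, which was at 0.909, 0.805 and 0.466 FPKM in oeALKBH5 libraries and at 0.939, 1.56e-18 and 1.14 FPKM in NC libraries, far below TRIM13, and the noncoding gene DLEU2. How the authors' counting divided shared reads is not stated. TRIM59, the other member with a transmembrane segment, was at 20.8 ± 0.296 FPKM in oeALKBH5 cells and 22.7 ± 3.25 FPKM in NC cells (SD, n = 3 each), with overlapping groups (log2 difference -0.11, limma adjusted p = 0.72).

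TRIM22 was at a low level in oeALKBH5 cells and at or near 0 in NC cells. It was at 2.1, 1.99 and 2.38 FPKM in oeALKBH5 libraries, against 0, 0.33 and 0 FPKM in NC libraries. The oeALKBH5 libraries lay close together and all above the NC libraries. The log2 difference was 1.52 (SE 0.31, limma adjusted p = 0.0273), and 3.79 with a pseudocount of 0.1. The call was lost whichever of the 6 libraries was left out, with limma adjusted p between 0.0508 without NC replicate 2 and 0.0981 without NC replicate 3. TRIM22 lies on chromosome 11, where its nearest coding neighbour on the RefSeq map is TRIM5. TRIM5, which binds incoming retroviral capsids, was at 20.4, 25.8 and 22.4 FPKM in oeALKBH5 libraries and at 25.1, 20.4 and 23.8 FPKM in NC libraries, with interleaved values (log2 difference -0.01, 95% interval -0.36 to 0.33, limma adjusted p = 0.971). TRIM5 itself overlaps TRIM6 and TRIM34 on the opposite strand of the RefSeq map. Whether TRIM22 and TRIM5 differ in their response was not tested.

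**Figure D2:**
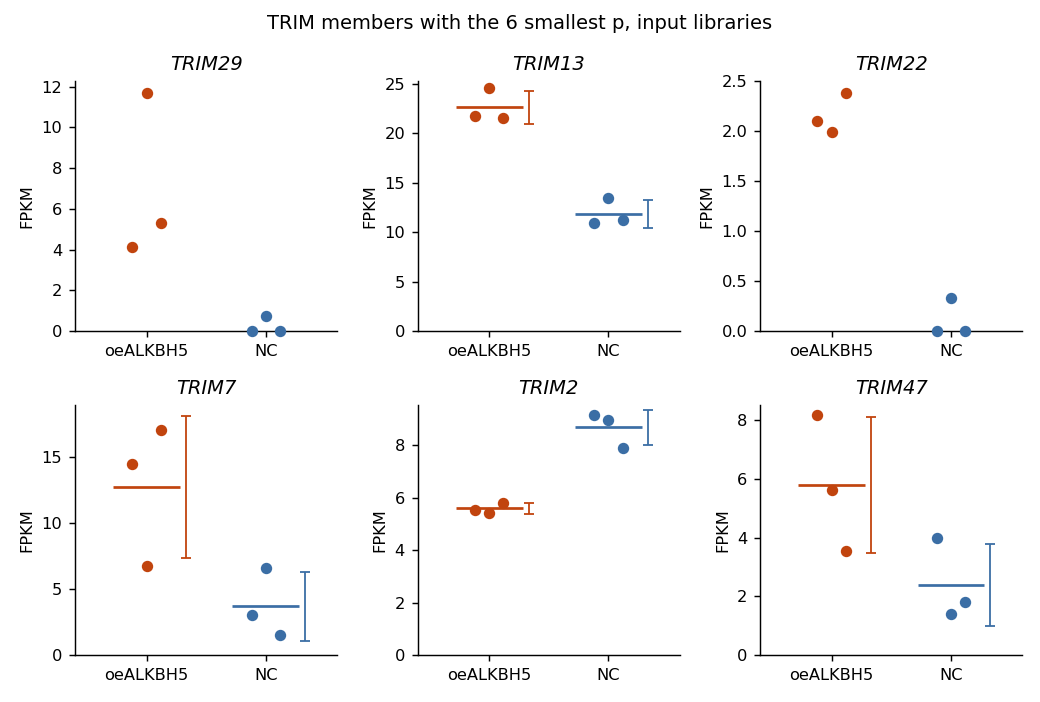
FPKM of the 6 TRIM members with the smallest limma p in each input library (y axis, linear from 0), oeALKBH5 left and NC right; lines are means and bars are SD (n = 3 each), left out for TRIM29 and TRIM22, whose NC libraries hold values of 0. TRIM13, TRIM22 and TRIM29 passed the test; TRIM7 and TRIM2 did not although their groups do not overlap, and the TRIM47 groups overlap.

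Among members that did not pass, TRIM7 had the largest difference. TRIM7, also known for binding glycogenin, the primer of glycogen synthesis, was at 14.4, 6.71 and 17 FPKM in oeALKBH5 libraries, against 2.99, 6.59 and 1.48 FPKM in NC libraries. Both replicates numbered 2 met near the same level, so the groups separate by only a small margin (log2 difference 1.61, SE 0.45, limma adjusted p = 0.0759). Its adjusted p ran from 0.053 without NC replicate 2 to 0.214 without NC replicate 3. TRIM7 overlaps the antisense genes TRIM7-AS1 and TRIM7-AS2, and whether the counting used strand is not stated. TRIM47, a PRY-SPRY ligase of chromosome 17, was at 8.17, 5.63 and 3.55 FPKM in oeALKBH5 libraries and at 3.99, 1.4 and 1.79 FPKM in NC libraries. The lowest oeALKBH5 value was under the highest NC value, and the difference did not pass (log2 difference 1.02, SE 0.37, limma adjusted p = 0.15). Its neighbour TRIM65, which ubiquitinates the RNA sensor MDA5, was at 8.25, 10.4 and 11.2 FPKM in oeALKBH5 libraries and at 10.7, 10.4 and 11.6 FPKM in NC libraries, with overlapping groups.

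TRIM2 had the most negative difference. It belongs to the NHL class, whose C-terminal propeller binds RNA or protein, and is known for the turnover of neurofilament in neurons. It was at 5.53, 5.44 and 5.81 FPKM in oeALKBH5 libraries, against 9.15, 8.99 and 7.92 FPKM in NC libraries. All oeALKBH5 libraries stood below all NC libraries, yet the difference did not pass over all genes (log2 difference -0.55, SE 0.19, limma adjusted p = 0.134). Its relative TRIM3 was at 21.5, 18.8 and 21.5 FPKM in oeALKBH5 libraries and spread widely in NC libraries, at 36.1, 18.1 and 28.6 FPKM (limma adjusted p = 0.405). TRIM32, linked to limb-girdle muscular dystrophy, had a log2 difference of -0.01, and TRIM71, the stem cell member of the class, was at 0 in 5 libraries and at 1.86e-08 FPKM in NC replicate 2.

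The antiviral and interferon-linked members were taken as a group of 11, of which 10 were tested, 1 rose, none fell and 9 did not pass, against 5.45% called over all tested genes. The 1 call is TRIM22, which reached the filter only through its oeALKBH5 libraries, so the count is a description and supports nothing about the group. The group's median log2 difference was 0.07, against 0.02 over all tested genes. TRIM25, the ligase that ubiquitinates the RNA sensor RIG-I and also attaches ISG15, was at 37.1, 45.2 and 57.4 FPKM in oeALKBH5 libraries and at 52, 27.9 and 33.2 FPKM in NC libraries. Those ranges overlap widely, and the 95% interval of its log2 difference ran from -0.21 to 0.86 (limma adjusted p = 0.461). TRIM21, the cytosolic antibody receptor, was at 9.18, 14.3 and 13.2 FPKM in oeALKBH5 libraries and at 9.21, 7.8 and 8.75 FPKM in NC libraries. Only oeALKBH5 replicate 1 fell within the NC range, and the difference did not pass (log2 difference 0.45, 95% interval -0.03 to 0.92, limma adjusted p = 0.254).

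The other antiviral members lay nearer to 0. TRIM14, a RING-less adaptor of the mitochondrial antiviral protein MAVS, was at 19.1 ± 2.31 FPKM in oeALKBH5 cells and 18.1 ± 3.23 FPKM in NC cells (SD, n = 3 each). TRIM26, which lies in the MHC region, was at 22.1, 15.5 and 28.6 FPKM in oeALKBH5 libraries and at 24.9, 18.5 and 18.4 FPKM in NC libraries. TRIM38, a brake on Toll-like receptor signalling, averaged 9.83 ± 2.7 FPKM in oeALKBH5 cells and 9.81 ± 1.82 FPKM in NC cells (SD, n = 3 each). For TRIM56, a ligase with activity against RNA viruses, the means were 8.94 ± 0.706 FPKM in oeALKBH5 cells and 7.94 ± 1.49 FPKM in NC cells, and for TRIM69, which restricts vesicular stomatitis virus, 8.32 ± 1.17 FPKM in oeALKBH5 cells and 10 ± 3.7 FPKM in NC cells (SD, n = 3 each). None of these members separated the groups, and their log2 differences lay between -0.20 for TRIM69 and 0.16 for TRIM56. The TRIM56 difference was 0.020 without NC replicate 1 and 0.26 without NC replicate 2. TRIM34 was at 2.22, 2.96 and 0.000194 FPKM in oeALKBH5 libraries and at 1.03, 2.2 and 1.01 FPKM in NC libraries. The overlapping readthrough gene TRIM6-TRIM34 was at 0.208 FPKM in oeALKBH5 replicate 3, where TRIM34 was nearly 0. The readthrough gene was at 0.833 FPKM in NC replicate 1 and near 0 in the other libraries, so the TRIM34 values are uncertain. TRIM6, which builds ubiquitin chains that activate the kinase IKKe, was listed at 0.415, 0 and 0.356 FPKM in oeALKBH5 libraries and at 0 in all 3 NC libraries, too low to be tested.

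The antiviral signalling genes that TRIM proteins act on were listed as their partners. Of 10 tested partners 4 rose and none fell; at an unadjusted limma p under 0.05, 5 were higher and 1 was lower. Over all tested genes 3.02% rose, 2.43% fell and 21.9% had an unadjusted p under 0.05. The groups did not overlap in 8 of the 10, 7 with oeALKBH5 above and 1 with oeALKBH5 below, against 28.1% of all tested genes. TBK1, TAB2 and TAB3 were above in this way without passing the test. RIGI, the RNA sensor ubiquitinated by TRIM25, was at 40.3, 45.8 and 39.7 FPKM in oeALKBH5 libraries, against 2.39, 3.63 and 3.75 FPKM in NC libraries (log2 difference 3.35, SE 0.19, limma adjusted p = 4.18e-05). ISG15, the ubiquitin-like modifier, was at 116, 182 and 124 FPKM in oeALKBH5 libraries, against 15.1, 13.4 and 17.3 FPKM in NC libraries (log2 difference 3.10, SE 0.18). Both genes were at a higher level in every oeALKBH5 library than in any NC library. IFIH1, which encodes MDA5, was at 19.2, 18.9 and 14.5 FPKM in oeALKBH5 libraries, against 8.37, 5.9 and 4.73 FPKM in NC libraries (limma adjusted p = 0.0134). The fourth, ZC3HAV1, the zinc finger antiviral protein that works with TRIM25, was at 95.6, 104.6 and 89.7 FPKM in oeALKBH5 libraries, against 57.4, 50.9 and 55.3 FPKM in NC libraries (limma adjusted p = 0.00357). The same held for IFIH1 and ZC3HAV1. The IFIH1 call was lost without oeALKBH5 replicate 1 (limma adjusted p = 0.06), oeALKBH5 replicate 2 (0.0635), NC replicate 2 (0.0527) or NC replicate 3 (0.0585), while RIGI, ISG15 and ZC3HAV1 passed with any 1 library left out. IRF3, the transcription factor downstream of RIG-I, was at 41, 17.5 and 29.3 FPKM in oeALKBH5 libraries and at 43.9, 53.3 and 53.5 FPKM in NC libraries with every oeALKBH5 library below every NC library, and did not pass (limma adjusted p = 0.106). IKBKE was not matched in the table, and CGAS and STING1 were too low to be tested. The difference between the partners' and the ligases' responses was not tested.

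**Figure D3:**
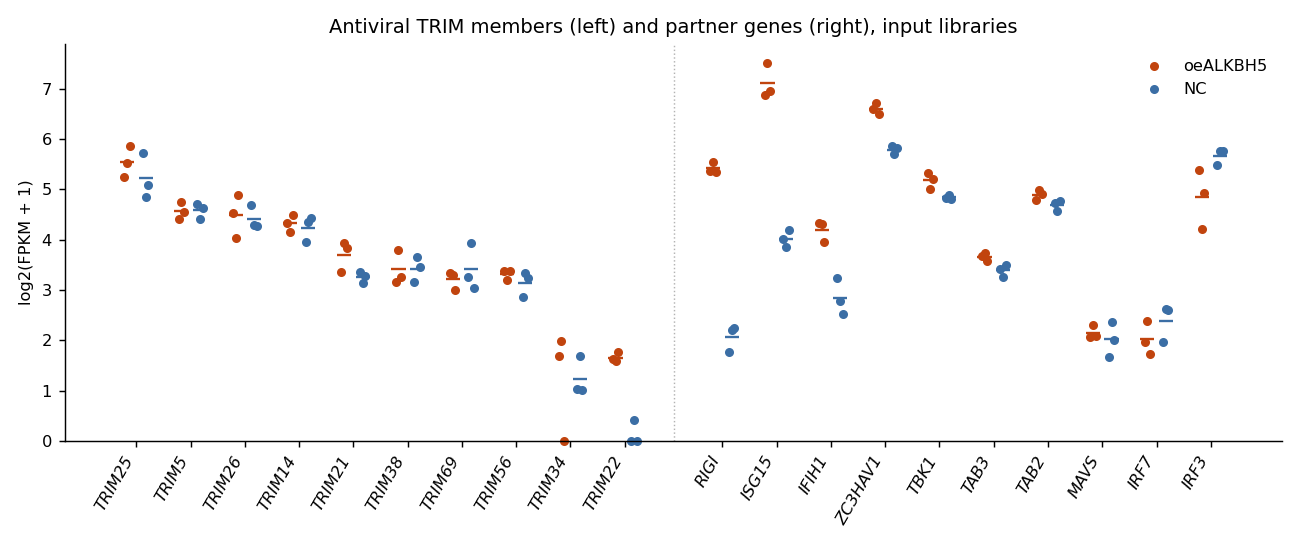
log2(FPKM + 1) of the 10 tested antiviral TRIM members (left of the dotted line) and the 10 tested partner genes (right), 1 point a library, oeALKBH5 left and NC right in each pair; lines are means, left out where a value is at or near 0. TRIM22 separates the groups among the TRIM members, while RIGI, ISG15, IFIH1 and ZC3HAV1 do so among the partners that passed the test.

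Promoters of the antiviral members were searched for the core of the interferon-stimulated response element, taken as GAAA, any 2 bases and GAAA again and read on both strands, because genes induced by interferon commonly carry it. The RefSeq table of start sites (GRCh38.p14, 250 bases before to 50 after each start) held 76 start sites of 56 members. The core was present at 10 of these, 13.2%, against 3.57% of all 35116 start sites in the table. The 10 members with a match were TRIM2, TRIM5, TRIM14, TRIM16, TRIM21, TRIM26, TRIM34, TRIM44, TRIM64C and TRIM69, of which 9 were tested. The called members TRIM13, TRIM22 and TRIM29 had no start site in the table and were not searched. None of the 9 could therefore be a called member, and nothing about their response follows from that. The second motif searched, TTCNNNGAA, the interferon gamma activated site, was present at 14 member start sites, 18.4%, against 7.66% of all start sites. Those sites belong to 11 members, of which 5 were tested, and include the near copies TRIM49, TRIM49B and TRIM49C. The sites are therefore not independent, and the gap between the shares was not tested. This second motif was present at none of the 10 antiviral members that had a start site in the table. TRIM2 and TRIM16 held both motifs, and matches of one motif did not overlap matches of the other at any member start site.

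The 6 antiviral members with the core are printed. Capitals mark each match on either strand, and overlapping matches run together. For 5 of them the 250 bases before the start site are given, on the strand of the gene. For TRIM21, whose 2 overlapping matches lie 18 to 33 bases after the start site, 30 bases around them are given. The intervals in GRCh38.p14 are chr11:5685075-5685324 on the minus strand for TRIM5, chr9:98119223-98119472 on the minus strand for TRIM14, chr11:4393666-4393695 on the minus strand for TRIM21, chr6:30213407-30213656 on the minus strand for TRIM26, chr11:5624751-5625000 on the plus strand for TRIM34 and chr15:44736278-44736527 on the plus strand for TRIM69.
TRIM5: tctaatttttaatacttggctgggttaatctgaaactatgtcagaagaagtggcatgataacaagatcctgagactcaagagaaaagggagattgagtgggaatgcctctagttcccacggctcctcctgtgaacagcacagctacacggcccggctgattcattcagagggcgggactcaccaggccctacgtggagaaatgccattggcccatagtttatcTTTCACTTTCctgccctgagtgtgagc
TRIM14: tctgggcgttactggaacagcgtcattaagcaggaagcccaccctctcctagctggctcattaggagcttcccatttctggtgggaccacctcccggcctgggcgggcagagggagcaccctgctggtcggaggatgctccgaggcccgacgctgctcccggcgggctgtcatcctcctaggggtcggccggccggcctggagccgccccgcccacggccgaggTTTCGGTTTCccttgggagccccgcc
TRIM21: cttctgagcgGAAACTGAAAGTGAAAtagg
TRIM26: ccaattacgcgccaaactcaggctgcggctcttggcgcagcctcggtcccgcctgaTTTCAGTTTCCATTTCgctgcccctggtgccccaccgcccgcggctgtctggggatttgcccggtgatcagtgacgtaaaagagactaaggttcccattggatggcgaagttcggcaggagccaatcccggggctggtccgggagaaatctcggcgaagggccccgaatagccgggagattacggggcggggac
TRIM34: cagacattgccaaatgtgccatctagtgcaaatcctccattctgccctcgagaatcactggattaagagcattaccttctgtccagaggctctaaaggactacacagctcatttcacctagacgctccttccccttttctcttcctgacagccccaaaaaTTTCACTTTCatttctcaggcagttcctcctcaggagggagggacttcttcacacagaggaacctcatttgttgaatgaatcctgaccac
TRIM69: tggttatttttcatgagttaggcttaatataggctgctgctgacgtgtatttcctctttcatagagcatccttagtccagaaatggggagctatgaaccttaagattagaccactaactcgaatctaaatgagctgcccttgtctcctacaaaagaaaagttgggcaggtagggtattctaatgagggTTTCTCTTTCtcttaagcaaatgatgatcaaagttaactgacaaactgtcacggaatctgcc
In TRIM5 and TRIM14 the match lies 27 and 26 bases before the start site, within the stretch next to it, and in TRIM34 and TRIM69 it lies 90 and 62 bases before. TRIM26 has 2 overlapping matches, the first 194 bases before the start site. Another TRIM34 start site among those searched held no match. A match is a description of the letters and not evidence of a bound factor.

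The PHD-bromodomain members, which act as transcriptional cofactors, included the most abundant member of the family. All 4 were tested with limma, and none passed over all genes or had an unadjusted p under 0.05. TRIM28 was at 186.5, 124 and 217 FPKM in oeALKBH5 libraries and at 158, 201.3 and 165 FPKM in NC libraries, above 98.1% of genes in the table by its mean. The NC range lies inside the oeALKBH5 range, and the 95% interval of the log2 difference was -0.45 to 0.41 (limma adjusted p = 0.967). TRIM28 alone made up 22% of the summed member level in oeALKBH5 cells and 22.7% in NC cells. TRIM33, a cofactor of SMAD4, was at 32.7, 31.9 and 30.8 FPKM in oeALKBH5 libraries and at 28.8, 30.7 and 30 FPKM in NC libraries, groups that do not overlap but differ by 0.09 on the log2 scale (limma adjusted p = 0.705). TRIM66 was at 11.2, 7.94 and 7.59 FPKM in oeALKBH5 libraries, against 5.84, 6.06 and 6.21 FPKM in NC libraries. Its groups did not overlap either, and it did not pass (log2 difference 0.48, limma adjusted p = 0.237); it overlaps RPL27A, which was at 614 to 647 FPKM in oeALKBH5 libraries and 633 to 652 FPKM in NC libraries, so its level is uncertain. TRIM24, a reader of histone marks and transcriptional cofactor, was at 27, 21.6 and 21.5 FPKM in oeALKBH5 libraries and at 23.5, 30.4 and 25.7 FPKM in NC libraries, with overlapping groups (log2 difference -0.18, 95% interval -0.53 to 0.18, limma adjusted p = 0.552). Its difference was -0.077 without NC replicate 2 and -0.28 without oeALKBH5 replicate 1.

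Of 8 genes that work with TRIM28 in silencing, 1 fell, none rose and 7 did not pass, where 2.43% of all tested genes fell and 3.02% rose. At an unadjusted limma p under 0.05, 3 were lower and 1 was higher, where 21.9% of all tested genes passed that limit. The groups did not overlap in 5 of the 8, 4 with oeALKBH5 below and 1 with oeALKBH5 above, against 28.1% of all tested genes. CBX3, a heterochromatin protein of the HP1 family, was at 234.9, 219 and 215 FPKM in oeALKBH5 libraries, against 279.3, 297 and 306 FPKM in NC libraries (log2 difference -0.40, SE 0.07, limma adjusted p = 0.0154). All oeALKBH5 libraries were below all NC libraries. The CBX3 call was lost without oeALKBH5 replicate 2 (limma adjusted p = 0.0541), oeALKBH5 replicate 3 (0.0656), NC replicate 2 (0.0589) or NC replicate 3 (0.0827), and without the variance trend (0.138). SETDB1, the histone methyltransferase recruited by TRIM28, averaged 27.5 ± 3.53 FPKM in oeALKBH5 cells and 23.3 ± 3.43 FPKM in NC cells (SD, n = 3 each) and did not pass (limma adjusted p = 0.429).

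TRIM36 and TRIM68, members known from prostate cancer cells, did not pass. TRIM36, a member of the COS class that binds microtubules, was at 9, 11.3 and 7.94 FPKM in oeALKBH5 libraries and at 8.94, 14.8 and 12.3 FPKM in NC libraries (log2 difference -0.31, 95% interval -0.83 to 0.21, limma adjusted p = 0.464). That difference was -0.16 without NC replicate 2 and -0.49 without NC replicate 1. TRIM68 was at 10.6, 8.03 and 8.87 FPKM in oeALKBH5 libraries and at 16.9, 6.23 and 10.5 FPKM in NC libraries. The NC range of TRIM68 contains all oeALKBH5 values, and its 95% interval, -0.89 to 0.53, is wide (limma adjusted p = 0.787).

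The other well expressed members also overlapped between groups. TRIM27, first described as a fusion partner of the kinase RET, averaged 45.7 ± 3.03 FPKM in oeALKBH5 cells and 50.2 ± 2.44 FPKM in NC cells. TRIM44, which carries a ubiquitin-specific protease type zinc finger in place of a RING, averaged 36.7 ± 4.03 FPKM in oeALKBH5 cells and 35 ± 3.46 FPKM in NC cells. TRIM16, a RING-less member involved in autophagy, averaged 37.7 ± 6.03 FPKM in oeALKBH5 cells and 30.2 ± 5.64 FPKM in NC cells (SD, n = 3 each for these genes). None of the 3 was called, with limma adjusted p between 0.33 for TRIM16 and 0.819 for TRIM44. TRIM16 is a near copy of TRIM16L, which was at 9.6, 13.6 and 10.7 FPKM in oeALKBH5 libraries and 9.27, 9.81 and 19.7 FPKM in NC libraries, so the split of reads between them is uncertain. TRIM35 had its largest value in a single library: it was at 5.53, 7.55 and 4.92 FPKM in oeALKBH5 libraries and at 7.08, 5.36 and 16.7 FPKM in NC libraries. Without NC replicate 3 its log2 difference shrank to -0.05, against -0.49 with all libraries. TRIM54, a muscle member of the COS class, was at 4.79, 2.11 and 3.99 FPKM in oeALKBH5 libraries and at 1.96, 2.48 and 2.86 FPKM in NC libraries (limma adjusted p = 0.491).

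Members of further classes and functions had small differences and overlapping groups. TRIM37, a centrosome regulator whose loss causes mulibrey nanism, was at 31.7, 22.8 and 25.6 FPKM in oeALKBH5 libraries and at 27, 34 and 20.1 FPKM in NC libraries (log2 difference 95% interval -0.47 to 0.47). TRIM8, a positive regulator of TNF and interleukin signalling, was at 18.9, 15.7 and 15.8 FPKM in oeALKBH5 libraries and at 16.9, 15 and 15.5 FPKM in NC libraries. TRIM23, which carries a GTPase domain of the ARF family, was at 11.3, 11.2 and 12.7 FPKM in oeALKBH5 libraries and at 9.43, 14.1 and 11.7 FPKM in NC libraries. The values of these 3 members are interleaved between the groups. TRIM39, on chromosome 6, was at 9.66, 7.81 and 8.06 FPKM in oeALKBH5 libraries and at 9.6, 8.2 and 12.7 FPKM in NC libraries (limma adjusted p = 0.589), and it shares sequence with the readthrough gene TRIM39-RPP21. TRIM4, TRIM11, TRIM41, TRIM45, TRIM46, TRIM52 and TRIM62 also overlapped between groups, with log2 differences from -0.25 for TRIM62 to 0.24 for TRIM52 and limma adjusted p of at least 0.53.

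The family spanned a wide range of levels. By mean over the 6 libraries, 14 members reached 20 FPKM, 25 reached 10 FPKM, and 8 of the 41 tested members were under 5 FPKM. The median level of tested members was 11.5 FPKM, against 14.5 FPKM over all tested genes, and TRIM22 was the lowest tested member at 1.13 FPKM. The spread between replicates of tested members, as the median coefficient of variation, was 15.1% in oeALKBH5 cells and 18.6% in NC cells, against 17.5% and 16.1% over all tested genes in oeALKBH5 and NC cells.

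**Figure D4:**
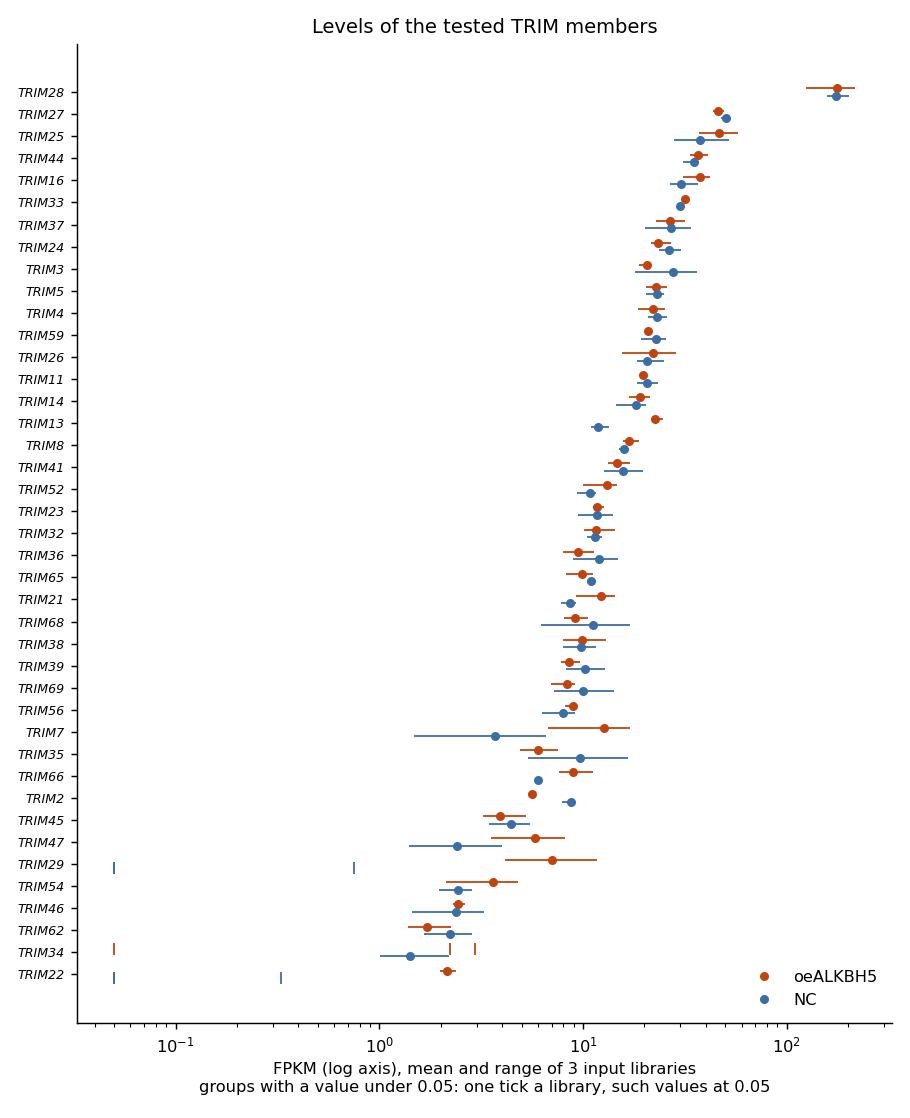
FPKM on a log axis for the 41 tested TRIM members in order of their mean over the 6 input libraries; dots are means and lines the range of 3 libraries, oeALKBH5 above NC, and groups with a value under 0.05 FPKM are shown by a tick for each library with such values drawn at 0.05. TRIM28 stands apart at the top, and the lines of the groups overlap for most members.

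The 29 members that were not tested had low values or none. Of these, 14 were listed at 0 in all 6 libraries, and the highest single value among the other 15 was 1.45 FPKM, for TRIM48 in NC replicate 2. On chromosome 6, TRIM10, TRIM15, TRIM31 and TRIM40 of the MHC region were at 0 apart from 0.121 FPKM of TRIM10 in oeALKBH5 replicate 3, while TRIM26, TRIM27, TRIM38 and TRIM39 on the same chromosome were expressed. On chromosome 11, 10 of 19 members were not tested, among them TRIM48, TRIM49, TRIM51, TRIM64B, TRIM64C and TRIM77. Within the PRY-SPRY class 19 of 37 members were tested, and within the COS class 3 of 8, where the muscle ligases TRIM55 and TRIM63 were at 0 apart from 0.52 FPKM of TRIM55 in NC replicate 1. Each member was placed in a single class. Members without a RING, TRIM14 and TRIM16 among them, and COS members formed classes of their own and are not counted as PRY-SPRY. TRIM48, TRIM49 and their relatives, and TRIM73 and TRIM74, are near copies, so single low values among them are uncertain.

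Family members with other names and the E2 enzymes that serve TRIM ligases showed no call by limma. Of 4 members under other names, 3 were tested: PML, the organiser of nuclear bodies, averaged 5.91 ± 1.86 FPKM in oeALKBH5 cells and 4.08 ± 0.656 FPKM in NC cells (SD, n = 3 each, limma adjusted p = 0.386), and MID1 and MID2, which bind microtubules, did not pass either; none of the 3 had an unadjusted p under 0.05. Of 11 E2 enzymes none was called, and at an unadjusted p under 0.05, 1 was higher and 2 were lower, a share near the 21.9% of all tested genes. UBE2L6, which also charges ISG15, was at 5.33, 4.53 and 5.7 FPKM in oeALKBH5 libraries and at 2.66, 2.19 and 2.97 FPKM in NC libraries, with no overlap (log2 difference 0.78, limma adjusted p = 0.0975). UBE2K was at 84.2, 89.6 and 74.6 FPKM in oeALKBH5 libraries and at 114, 103 and 106 FPKM in NC libraries, also with no overlap (log2 difference -0.38, limma adjusted p = 0.0619). Over the 11 E2 enzymes the groups did not overlap in 5, 4 with oeALKBH5 below and 1 with oeALKBH5 above, against 28.1% of all tested genes.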

How the data were processed

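RNA of the 6 input libraries was analysed, grouped by the titles in the labels. The values were used as deposited by the authors and taken as FPKM. Their header gives no unit, which was read from the tools named and from the values. Per the submitters' processing notes the tools were HISAT2 2.0.4, cutadapt 1.9.3, Cufflinks and Cuffdiff with build hg19, in roles not stated; whether counting used strand is not given in the sources used here. The m6A peak lists, in hg19, hold no gene names and were not used here.

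Symbols came from a gene name table, which named 19434 of 20308 rows; protein-coding status and start-site sequences came from RefSeq (GRCh38.p14). Genes averaging 0.5 FPKM or more were fitted as log2(FPKM + 1) with limma 3.58.1 (R 4.3.3, trended variance), with Benjamini-Hochberg adjustment over all tested genes and a threshold of 0.05. Differences on this scale are understated for low genes. Python 3.11.15, pandas 2.3.3, numpy 2.4.6 and matplotlib 3.10.9 were used. The fit was tested on simulated data. Alternatives changed the pseudocount, the filter, the scaling, the variance trend, a replicate block, or left out 1 library.

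Named members were those called, the 8 largest uncalled differences, the 5 most abundant, listed antiviral, chromatin and prostate-linked members (TRIM36 and TRIM68) and TRIM29, called context genes and ALKBH5. Other members, the promoter motifs, overlapping genes and uncalled context genes (such as IRF3, SETDB1, PML, UBE2L6 and UBE2K) were named after their values were seen. The members and lists were chosen with earlier results of these data known.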

Additional observations from a re-analysis of the deposited data

How the results depend on the processing

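The call of 3 higher TRIM members held with a pseudocount of 0.1 or 0.5, with no filter, with a filter of 1 FPKM, and with quantile normalization, equal medians or no variance trend, and no member was called lower by limma in any of the 14 alternatives. These fits reuse the same 6 libraries, so they are not independent support. TRIM29 and TRIM22 reached the filter of 0.5 FPKM only through their oeALKBH5 libraries, so the count of 3 is a description. Leaving out 1 library gave between 0 and 2 higher members, with 0 without NC replicate 3, where the background also shrank: 138 to 210 genes were then called higher over the table, against 385 with all libraries, and 68 to 188 lower, against 310. Fewer libraries were then fitted. Without the variance trend 198 genes were called higher and 72 lower; with no filter 163 were called lower; the cause was not tested. Equal medians gave 348 higher and 369 lower genes.

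Libraries with the same replicate number showed no shared deviation: their deviations correlated at -0.0205 to 0.0315, and 1 of 3 oeALKBH5 libraries correlated best with its own number. These correlations cannot tell whether same-numbered libraries were prepared together. With the replicate number as a block, 203 genes were called higher and 141 lower, and 2 TRIM members were higher, TRIM13 (limma adjusted p = 0.0449) and TRIM29 (0.0127), while TRIM22 (0.0827) and CBX3 (0.0649) did not pass.

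Of the named members, 9 that were not called took the other sign in some fit, in 20 fits, 19 of them with a library left out. The log2 differences with 1 library left out ran from -0.19 to 0.21 for TRIM28, -0.018 to 0.13 for TRIM44, -0.10 to 0.061 for TRIM5, -0.065 to 0.17 for TRIM14, -0.14 to 0.29 for TRIM26, -0.39 to 0.60 for TRIM34, -0.21 to 0.11 for TRIM38, -0.38 to 0.062 for TRIM69 and -0.51 to 0.15 for TRIM68. Quantile normalization gave 0.017 for TRIM28. No direction is drawn for these genes. The absolute depth is unknown, so what a value of 0 allows cannot be given. The alternative on m6A peaks was not run.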
